A study of Arabidopsis thaliana with 24 samples.

Results

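The nuclear ribosomal RNA (rRNA) loci of *Arabidopsis thaliana* were followed here as 6 of the 37813 rows of an RNA-Seq count table. They were chosen by identifier, with their levels in these libraries already known, and lie at the copies of the ribosomal DNA (rDNA) that the genome assembly holds on chromosomes 2 and 3. Whole rosettes of plants aged 4 weeks by the labels and 3 weeks by the methods were taken from 8 groups of 3 biological replicates (24 libraries), each replicate a pool of at least 4 rosettes. The *phot1*, *phot2*, and *phot1phot2* mutants, which lack the blue light receptors phototropin 1, phototropin 2, or both, and the wild type (WT) were each harvested 30 min after 100 mJ cm-2 of UV-C, or non-treated. All groups share the Columbia-0 *gl1* background, and each genotype was 1 line, so the phot mutation and any other difference between lines cannot be told apart.

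In plants, 18S, 5.8S, and 25S rRNA are cut from one long precursor that RNA polymerase I makes in the nucleolus. The 18S rRNA belongs to the small ribosomal subunit, and 5.8S and 25S rRNA to the large subunit. An external spacer precedes 18S in the precursor, and internal spacers lie on either side of 5.8S. Many nearly identical repeats stand in the nucleolus organizer regions, of which an assembly shows only a few, and their sequence variants are switched on or off in blocks. Mature rRNA makes up most of the RNA of a cell but carries no poly-A tail, so a poly-A library retains little of it.

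The annotation bears out the label in part. Of the 6 loci, 4 are typed as rRNA, namely the 18S genes AT2G01010 and AT3G41768 and the 5.8S genes AT2G01020 and AT3G41979, and none is annotated as 25S. The product name of AT2G01020 is given as 5S ribosomal RNA, but its sequence is identical to that of AT3G41979, named 5.8S. AT2G01008, which ends 532 bases before the 18S gene of chromosome 2, is annotated as protein-coding, and so is AT2G01021, 625 bases beyond the 5.8S gene. All 6 lie on the + strand. In the TAIR10.1 coordinates, AT2G01008 spans chromosome 2, positions 1025 to 3173, with 1602 exon bases in 3 exons. AT2G01010 spans 3706 to 5513, AT2G01020 spans 5782 to 5945, and AT2G01021 spans 6571 to 6672 of the same chromosome. On chromosome 3, AT3G41768 spans 14197677 to 14199484 and AT3G41979 spans 14199753 to 14199916. A further pair of chromosome 3 rows belongs to the same repeat and was set beside the members after its values had been seen. AT3G06355, a long non-coding RNA at 14199575 to 14200076, encloses the 5.8S gene AT3G41979, and AT3G06365, an RNA of no named class at 14200215 to 14204208, follows it. AT2G03865, at 7090 to 7505 of chromosome 2, was likewise set beside the members.

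The authors counted only reads that matched a single place and a single row, so what a row can count depends on where its sequence differs from the other copies. The 18S genes of 1808 bases differ at 2 positions, counted from 1 at the 5′ end, written T489C and T1327C with the chromosome 2 base first (identity 99.89%). They are shown because, among single 76-base stretches, these bases alone set the 18S rows apart. The capital marks the differing base.
AT2G01010, chr2:4179-4209: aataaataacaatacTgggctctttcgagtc
AT3G41768, chr3:14198150-14198180: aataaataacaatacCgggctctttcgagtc
AT2G01010, chr2:5017-5047: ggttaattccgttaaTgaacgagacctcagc
AT3G41768, chr3:14198988-14199018: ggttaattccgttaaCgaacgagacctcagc

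The 164 bases of 5.8S are identical in both copies. They are shown with the stretch just before them, because the nearest difference lies in the internal spacer, 15 bases before the gene (capital).
5.8S of AT2G01020, chr2:5782-5945: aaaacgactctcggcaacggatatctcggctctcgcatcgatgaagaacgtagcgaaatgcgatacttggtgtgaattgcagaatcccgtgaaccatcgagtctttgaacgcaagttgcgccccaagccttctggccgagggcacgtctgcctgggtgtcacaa
Before AT2G01020, chr2:5752-5782: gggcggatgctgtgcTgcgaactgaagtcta
Before AT3G41979, chr3:14199723-14199753: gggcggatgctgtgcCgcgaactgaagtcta

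AT2G01021 has no base of its own. Its 102 bases, shown because the row was almost empty, also occur at 14200542 to 14200643 of chromosome 3, inside AT3G06365.
AT2G01021, chr2:6571-6672: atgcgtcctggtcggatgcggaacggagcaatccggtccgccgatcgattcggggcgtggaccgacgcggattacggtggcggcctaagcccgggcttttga

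Among windows of 76 bases that touch a row, 754 of 1827 (41.27%) were found once in the genome for AT2G01008, and 152 of 1883 (8.07%) for each 18S gene. For AT2G01020 they were 61 of 239 (25.52%), all of them reaching into the spacer before the gene, since 0 of the 89 windows inside 5.8S were found once. AT3G41979 also had 61 of 239, but every one of them overlapped AT3G06355 as well, and AT2G01021 had 0 of 177. By exact matching, the counts of AT2G01020 are therefore reads that reach the spacer of the chromosome 2 type, and not of 5.8S rRNA as a whole. A window is a single stretch, whereas paired reads span a longer fragment.

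**Figure D1:**
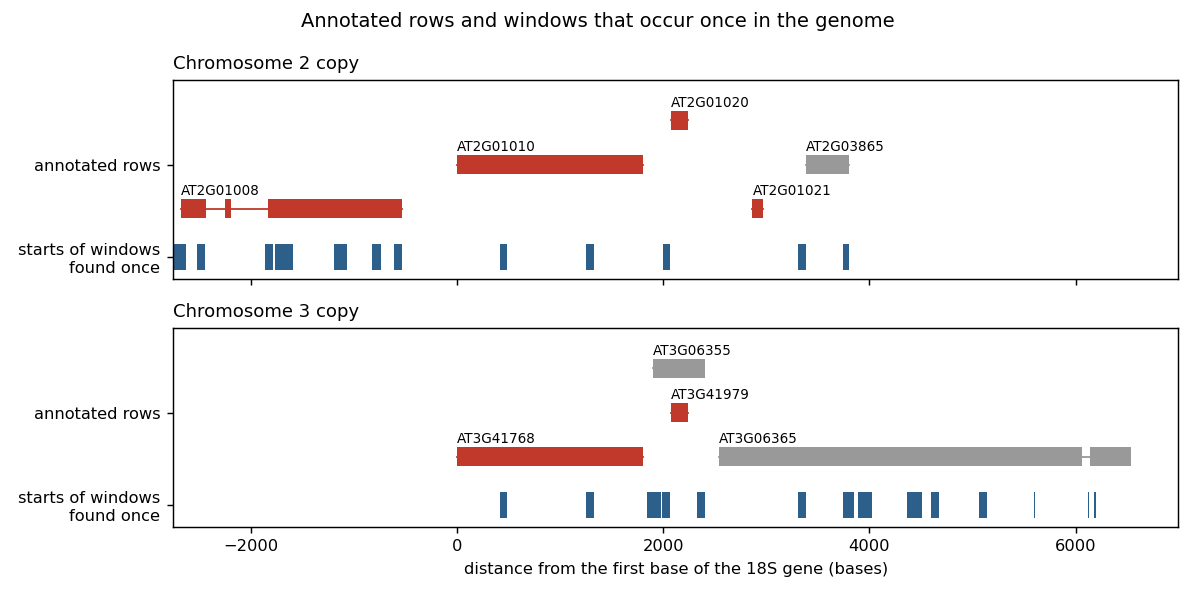
Annotated exons and the start positions of 76-base windows found once in the genome, by distance in bases from the first base of the 18S gene, for the chromosome 2 copy (above) and the chromosome 3 copy (below). Members are red and other rows of the repeat grey; each 18S gene holds only 2 short stretches of such starts (blue), 152 of 1883 windows.

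Of the 6 loci, 4 passed the filter of at least 5 reads in at least 6 libraries. AT3G41979 had 0 reads in all 24 libraries. By exact matching, 0 of its 239 windows were both found once and free of another row, so its level was not measured. AT2G01021 had 2 reads in replicate 1 of UV-C-treated *phot1*, 2 reads in replicate 2 of UV-C-treated *phot2*, and 0 elsewhere. Levels of the other 4 are given in CPM, the reads of a row relative to the TMM-scaled total of the library. As the rows were chosen on these levels, they are described without a test. The log2 fold change (log2FC) is an estimate from the edgeR model of all 21366 rows that passed the filter. Its standard error (SE) was taken as the absolute log2FC divided by the square root of the quasi-likelihood F statistic of that model. The SE is therefore approximate, and not secure where the log2FC is near 0.

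The 18S row of chromosome 3, AT3G41768, held nearly all the reads. After UV-C it stood at 24075, 26832, and 27320 CPM in WT, at 27219, 29693, and 26270 CPM in *phot1*, at 28103, 34616, and 20326 CPM in *phot2*, and at 26185, 22914, and 20852 CPM in *phot1phot2*. Non-treated, it stood at 87.2, 78.9, and 97.4 CPM in WT, at 127, 291, and 152 CPM in *phot1*, at 95.5, 95.2, and 109 CPM in *phot2*, and at 73.9, 83.8, and 128 CPM in *phot1phot2*. The 12 UV-C libraries all lay far above the 12 non-treated ones, and replicate 2 of non-treated *phot1* was the highest of the non-treated set. The log2FC of UV-C over non-treated was 8.21 (SE 0.31) in WT, 7.19 (SE 0.30) in *phot1*, 8.11 (SE 0.31) in *phot2*, and 7.93 (SE 0.31) in *phot1phot2*.

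The 18S row of chromosome 2, AT2G01010, ran far lower and had the same profile. After UV-C it stood at 20.6, 25.6, and 26.8 CPM in WT, at 28.6, 29.3, and 23.6 CPM in *phot1*, at 28.04, 31.0, and 18.8 CPM in *phot2*, and at 24.9, 22.7, and 19.5 CPM in *phot1phot2*. The non-treated libraries held only 3, 3, and 4 reads in WT, 9, 22, and 7 reads in *phot1*, 5, 5, and 4 reads in *phot2*, and 3, 3, and 9 reads in *phot1phot2*. From the summed reads of the 3 libraries, UV-C over non-treated was 310-fold in WT (exact 95% interval 168 to 647), 85.9-fold in *phot1* (62.4 to 122), 244-fold in *phot2* (145 to 447), and 183-fold in *phot1phot2* (110 to 327). These intervals reflect counting error alone, as PCR copies of a molecule are not independent reads. Single libraries weighed on 2 of these values: the fitted log2FC was 6.41 in *phot1* and 7.04 without replicate 2 of the non-treated mutant, and 7.47 in *phot1phot2* and 8.15 without replicate 3 of the non-treated mutant.

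AT2G01020, the 5.8S row of chromosome 2, separated WT from the mutants as well as the treatments, while *phot2* and *phot1phot2* overlapped. After UV-C it stood at 12.2, 11.9, and 15.7 CPM in *phot1*, at 9.38, 6.85, and 4.87 CPM in *phot2*, and at 9.47, 8.61, and 8.31 CPM in *phot1phot2*, against 3.92, 3.20, and 3.38 CPM in WT. Non-treated, it stood at 1.23, 1.14, and 1.09 CPM in *phot1*, at 1.04, 0.62, and 0.70 CPM in *phot2*, and at 1.04, 0.96, and 0.74 CPM in *phot1phot2*, against 0.36, 0.31, and 0.54 CPM in WT. Every mutant library lay above every WT library of the same treatment. Its log2FC of UV-C over non-treated was 3.12 (SE 0.26) in WT, 3.52 (SE 0.21) in *phot1*, 3.14 (SE 0.22) in *phot2*, and 3.26 (SE 0.22) in *phot1phot2*.

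AT2G01008, which lies before the 18S gene of chromosome 2, separated WT from the mutants among the UV-C libraries but not among the non-treated ones. After UV-C it stood at 12.98, 12.5, and 14.3 CPM in *phot1*, at 7.93, 8.21, and 4.79 CPM in *phot2*, and at 8.24, 6.05, and 6.68 CPM in *phot1phot2*, against 1.63, 1.49, and 2.03 CPM in WT. Non-treated, it held 13, 13, and 7 reads in *phot1*, 15, 12, and 7 reads in *phot2*, and 6, 10, and 7 reads in *phot1phot2*, against 10, 13, and 11 reads in WT, and the genotypes overlapped. The log2FC of UV-C over non-treated was 2.67 (SE 0.28) in WT, 5.58 (SE 0.24) in *phot1*, 4.75 (SE 0.24) in *phot2*, and 5.20 (SE 0.26) in *phot1phot2*.

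**Figure D2:**
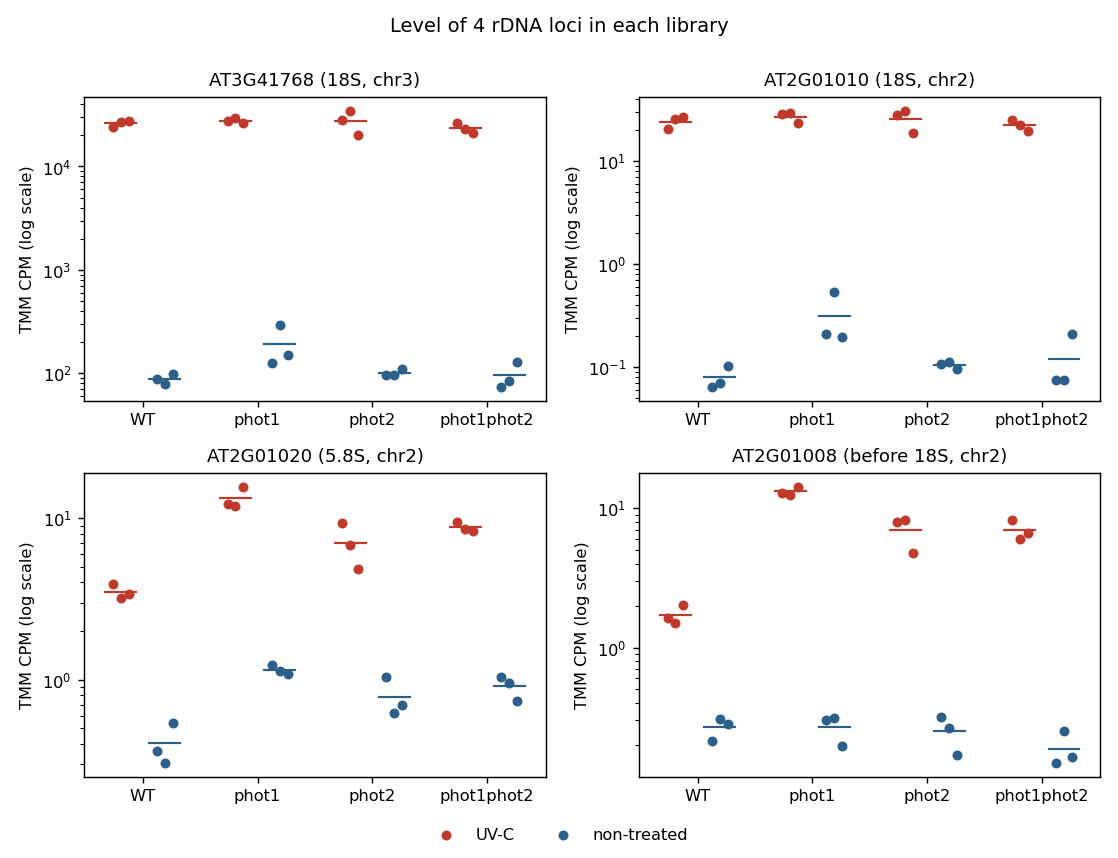
Level of the 4 rows that passed the filter in each library, in TMM-scaled CPM on a log axis, with UV-C (red) left of non-treated (blue) in each genotype; points are the 3 replicates and bars their mean. The 18S rows differ between treatments far more than between genotypes, while AT2G01020 and, after UV-C, AT2G01008 are lowest in WT.

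In each genotype, all 3 UV-C libraries lay above all 3 non-treated libraries for 4 of the 4 rows. Over all rows tested, this was so for 27.8% in WT, 27% in *phot1*, 28.8% in *phot2*, and 30% in *phot1phot2*. Since the choice of the loci used this contrast, nothing further is read from the count. By the same model, the median log2FC of all rows was −0.003 in WT, −0.004 in *phot1*, 0.009 in *phot2*, and 0.007 in *phot1phot2*.

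Summed, the 6 loci took 1.78 to 3.19% of the counted reads of the UV-C libraries (median 2.40%), against 0.00822 to 0.0322% of those of the non-treated libraries (median 0.0110%), 12 libraries each. By group, the share was 2.45 ± 0.11% after UV-C and 0.010 ± 0.0012% non-treated in WT, 2.47 ± 0.13% and 0.0208 ± 0.00997% in *phot1*, 2.59 ± 0.60% and 0.0115 ± 0.0011% in *phot2*, and 1.98 ± 0.21% and 0.0105 ± 0.0032% in *phot1phot2* (SD, n = 3 each). AT3G06365, a longer row further along the chromosome 3 repeat, took a larger share of the reads, at 3.42 to 6.05% after UV-C against 0.0492 to 0.138% non-treated. The UV-C libraries also had fewer counted reads, with totals of 20897905 to 28723145 against 33200727 to 41902444 in the non-treated ones. Reads that matched several places are not in these totals, so the totals do not show sequencing depth. Every share given here is a share of counted reads. Because rRNA is measured here as a share of poly-A-selected RNA, more rRNA per cell, less mRNA per cell, and more rRNA carried through the selection cannot be told apart. In the column headers, the sample indexes of all non-treated libraries come before those of all UV-C libraries. What that order stands for is not stated, and any effect of it cannot be told apart from UV-C.

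Transcripts of the organelles, which as a rule also lack the long poly-A tail of nuclear mRNA, moved with the rRNA rows. The 134 chloroplast rows took 1.58 to 2.34% of the reads after UV-C against 0.0140 to 0.0286% non-treated, and the 162 mitochondrial rows 0.414 to 0.572% against 0.00578 to 0.0117%. Small nuclear RNAs (81 rows) took 0.00137 to 0.00255% after UV-C against 0.000482 to 0.000740% non-treated, also without overlap. Small nucleolar RNAs (286 rows), which guide the modification of rRNA, overlapped between treatments, at 0.00441 to 0.00862% after UV-C against 0.00409 to 0.00650% non-treated, and so did nuclear transfer RNAs (623 rows), at 0.000453 to 0.000656% against 0.000355 to 0.000510%. The ratio of the UV-C median to the non-treated median was 218 for the 6 loci, 84.4 for AT3G06365, 110 for the chloroplast rows, 62.4 for the mitochondrial rows, 2.80 for small nuclear RNAs, 1.33 for small nucleolar RNAs, and 1.17 for transfer RNAs. The part of these shared movements in the rRNA result was not tested.

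**Figure D3:**
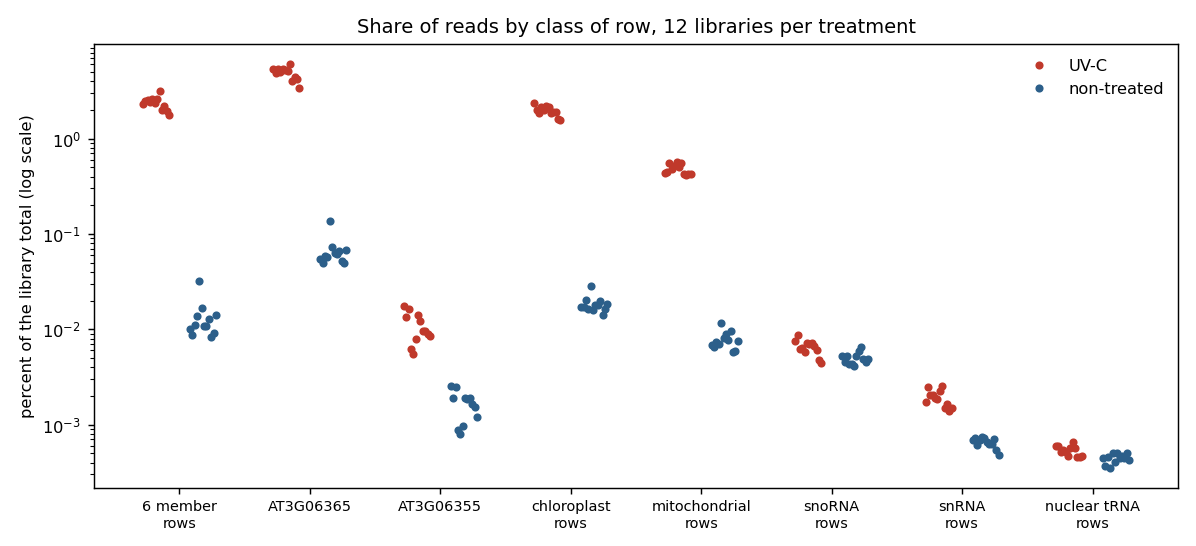
Share of each library's counted reads in the 6 loci and in other classes of row, in percent on a log axis, with the 12 UV-C libraries (red) left of the 12 non-treated libraries (blue). The 6 loci, AT3G06365, and the chloroplast and mitochondrial rows all stand far higher after UV-C (lowest 0.414%) than non-treated (highest 0.138%), whereas small nucleolar and transfer RNAs overlap.

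The organelle rRNA rows were not used to choose the loci, and they were tested. They were named with earlier results of these data known, so their adjusted p describes these libraries and is not independent evidence. Of 11 such rows, the chloroplast ones held at most 1 read in any library, so their response was not measured. The 3 mitochondrial ones passed the filter, and each was higher after UV-C in all 4 genotypes at an adjusted p under 0.01 and an absolute log2FC over 1. By these limits, 7.96% of all rows were called higher in WT, 7.35% in *phot1*, 8.85% in *phot2*, and 8.09% in *phot1phot2*. ATMG00020 averaged 3243 ± 500 CPM after UV-C against 23.6 ± 2.1 CPM non-treated in WT (SD, n = 3 each), a log2FC of 7.11 (SE 0.21, edgeR quasi-likelihood adjusted p = 1.36e-17). Its log2FC was 6.74 in *phot1*, 6.76 in *phot2*, and 7.19 in *phot1phot2*. ATMG01390 averaged 1495 ± 255 CPM after UV-C against 18.4 ± 1.6 CPM non-treated in WT, a log2FC of 6.35 (SE 0.21, edgeR quasi-likelihood adjusted p = 1.39e-16). ATMG01380 was scarce, at 2.10 ± 0.71 CPM after UV-C against 0.70 ± 0.17 CPM non-treated in WT, and its log2FC of 1.57 (SE 0.25, edgeR quasi-likelihood adjusted p = 1.92e-05) was the smallest of the 3. None of the 3 was called between a mutant and WT, or in the test of whether UV-C acted differently in a mutant.

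Between each mutant and WT, the 18S rows overlapped after UV-C. For AT3G41768 the log2FC of mutant over WT was 0.09 (SE 0.23) in *phot1*, 0.09 (SE 0.23) in *phot2*, and −0.16 (SE 0.23) in *phot1phot2*, and for AT2G01010 it was 0.16 (SE 0.16) in *phot1*, 0.09 (SE 0.16) in *phot2*, and −0.12 (SE 0.16) in *phot1phot2*. With no TMM scaling the *phot1phot2* value of AT3G41768 was −0.31, and its 3 libraries then lay below the 3 WT libraries. Scaling by TMM raised the values of that comparison by 0.15.

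AT2G01020 and AT2G01008, in contrast, stood higher in the mutants after UV-C. For AT2G01020 the log2FC over WT was 1.92 (SE 0.20) in *phot1*, 1.00 (SE 0.20) in *phot2*, and 1.33 (SE 0.20) in *phot1phot2*. That of AT2G01008 was 2.95 (SE 0.20) in *phot1*, 2.02 (SE 0.21) in *phot2*, and 2.03 (SE 0.21) in *phot1phot2*. Outside the members, the chromosome 2 row AT2G03865 was at 0.17 (SE 0.18) in *phot1*, −0.01 (SE 0.18) in *phot2*, and −0.25 (SE 0.18) in *phot1phot2*. Its log2FC of UV-C over non-treated in WT was 8.07 (SE 0.34), from 2, 5, and 5 non-treated reads. For each mutant, 2 of the 4 rows had all 3 mutant libraries above all 3 WT libraries, where the share over all rows tested was 10.8% in *phot1*, 14.9% in *phot2*, and 23.2% in *phot1phot2*. These comparisons share the WT libraries.

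Non-treated, AT2G01020 again stood above WT in all 3 mutants, with a log2FC of 1.52 (SE 0.28) in *phot1*, 0.98 (SE 0.30) in *phot2*, and 1.18 (SE 0.29) in *phot1phot2*, while AT2G01008 had values of 0.04 (SE 0.35) in *phot1*, −0.07 (SE 0.35) in *phot2*, and −0.50 (SE 0.38) in *phot1phot2*. The largest values of the 18S rows were in *phot1*, at 1.11 (SE 0.23) for AT3G41768 and 1.96 (SE 0.62) for AT2G01010. For AT3G41768 they were 0.19 (SE 0.23) in *phot2* and 0.12 (SE 0.23) in *phot1phot2*. For AT2G01010 they were 0.41 (SE 0.78) in *phot2* and 0.62 (SE 0.76) in *phot1phot2*, each with an SE above its value. Without overlap, 3 of the 4 rows lay above WT in *phot1*, 1 of 4 in *phot2*, and 1 of 4 in *phot1phot2*, where the share over all rows tested was 9.56% in *phot1*, 12.4% in *phot2*, and 14.8% in *phot1phot2*.

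One library weighed on the 18S values of non-treated *phot1*. In its replicate 2, AT3G41768 was 2.09 times the mean of the other 2 replicates, AT2G01010 2.63 times, AT3G06365 2.07 times, ATMG00020 1.66 times, and ATMG01390 1.68 times, whereas AT2G01020 was 0.979 times. Leaving it out, the log2FC of AT3G41768 in non-treated *phot1* over WT was 0.67 in place of 1.11, and that of AT2G01010 was 1.33 in place of 1.96.

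**Figure D4:**
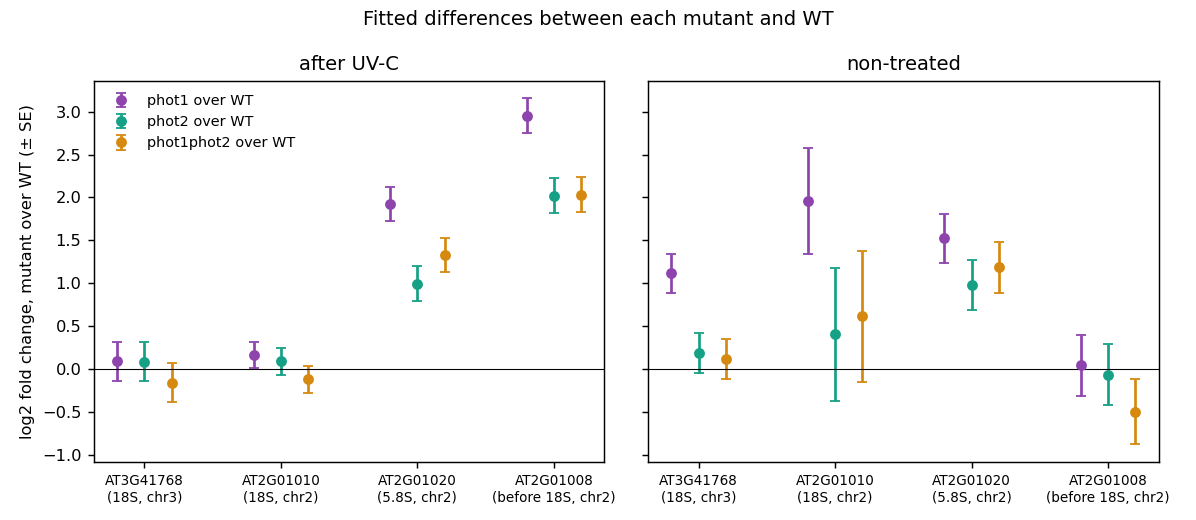
Log2FC of each mutant over WT, with the approximate SE derived from the edgeR model, for the 4 rows that passed the filter, after UV-C (left) and non-treated (right). After UV-C the 18S rows sit near 0 while AT2G01020 and AT2G01008 reach 1.00 to 2.95; non-treated, AT2G01020 stays above 0 in all 3 mutants and AT2G01008 does not.

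The log2FC of UV-C in a mutant minus that in WT follows from these values. For AT2G01008 it was 2.91 (SE 0.42) in *phot1*, 2.09 (SE 0.42) in *phot2*, and 2.53 (SE 0.44) in *phot1phot2*. For AT2G01020 it was 0.40 (SE 0.36) in *phot1*, 0.02 (SE 0.58, not secure at a value this small) in *phot2*, and 0.14 (SE 0.38) in *phot1phot2*. For AT3G41768 it was −1.02 (SE 0.32) in *phot1*, or −0.58 without replicate 2 of non-treated *phot1*, −0.10 (SE 0.32) in *phot2*, and −0.28 (SE 0.32) in *phot1phot2*. In *phot1phot2* the AT3G41768 value was −0.01 without replicate 3 of the non-treated mutant, the highest of that group.

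The ratio of 2 rows within a library does not depend on how libraries are scaled. Windows countable for AT2G01020 reach into 5.8S with the spacer of the chromosome 2 copy, whereas windows countable for AT3G06355 lie in the spacers on either side of AT3G41979, as windows that touch that gene match both rows. The 2 rows thus count different stretches of the repeat, and their percentages are not shares of the 2 copies at one site. AT3G06355 had lower means in the mutants than in WT, the opposite of AT2G01020. After UV-C it averaged 73.6 ± 12.8 CPM in *phot1*, 128 ± 28 CPM in *phot2*, and 106 ± 7 CPM in *phot1phot2*, against 168 ± 19 CPM in WT (SD, n = 3 each). Non-treated, it averaged 8.16 ± 0.88 CPM in *phot1*, 16.5 ± 0.3 CPM in *phot2*, and 13.5 ± 2.2 CPM in *phot1phot2*, against 20.5 ± 2.6 CPM in WT. Only the *phot2* libraries overlapped those of WT, and only after UV-C, at 152, 134, and 98.2 CPM against 180, 146, and 177 CPM.

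Of the reads of both rows together, AT2G01020 held 15.3 ± 0.6% in *phot1*, 5.13 ± 0.59% in *phot2*, and 7.66 ± 0.07% in *phot1phot2*, against 2.05 ± 0.15% in WT after UV-C. Non-treated, it held 12.4 ± 1.5% in *phot1*, 4.53 ± 1.16% in *phot2*, and 6.36 ± 0.05% in *phot1phot2*, against 1.92 ± 0.41% in WT (SD, n = 3 each). The order of the 4 genotypes was thus alike under both treatments, with no overlap between neighbouring groups: the lowest *phot2* library was at 4.72% after UV-C and 3.65% non-treated, and the highest WT library at 2.15% and 2.39%. As the pair of rows was formed after its values were seen, this is a description with no test.

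For 18S, where both rows count the same stretches, the share of the chromosome 2 row did not separate the genotypes after UV-C. AT2G01010 held 0.0979 ± 0.0076% of the 18S reads in *phot1*, 0.0938 ± 0.0053% in *phot2*, and 0.0958 ± 0.0027% in *phot1phot2*, against 0.0929 ± 0.0066% in WT. Non-treated, it held 0.158 ± 0.028% in *phot1*, 0.105 ± 0.015% in *phot2*, and 0.118 ± 0.039% in *phot1phot2*, against 0.0894 ± 0.0158% in WT, from 3 to 22 reads per library. A single base call can assign a read to one 18S row or the other, so at shares this low the 2 rows are not secure as measures of separate copies.

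**Figure D5:**
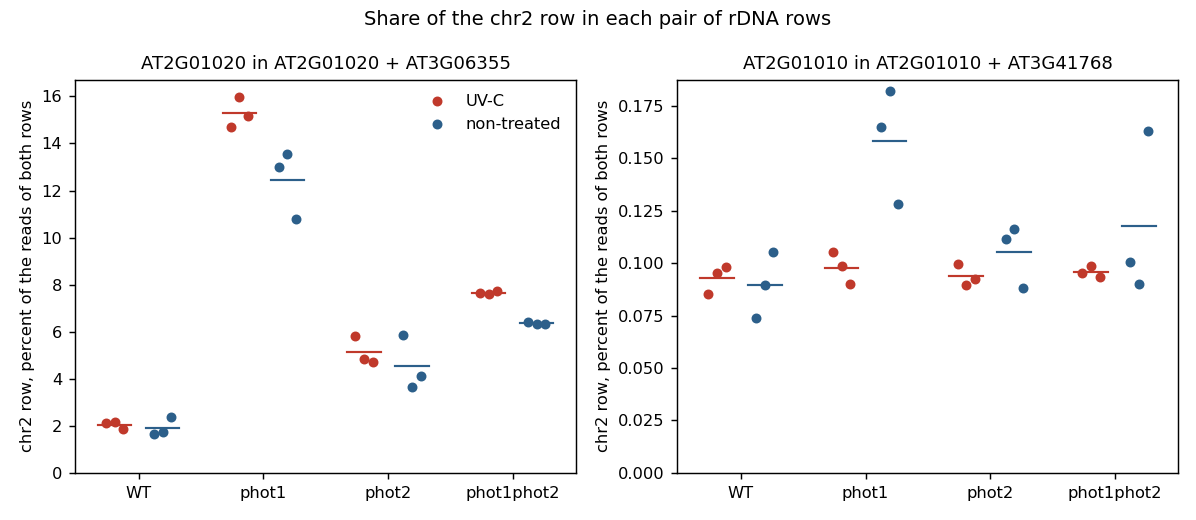
Share of the chromosome 2 row in 2 pairs of rows, in percent of the reads of both rows, with UV-C (red) left of non-treated (blue); points are the 3 replicates and bars their mean. For AT2G01020 with AT3G06355 (left), which count different stretches, all *phot1* libraries are at 10.8% or more and all WT libraries at 2.39% or less, while for 18S (right) the UV-C libraries of all genotypes lie between 0.0854% and 0.105%.

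AT3G41768 made up 98.3 to 99.9% of the summed member reads in every library. Relative to AT2G01010, AT2G01008 was far scarcer after UV-C in WT, with 71.1 ± 11.2 reads per 1000 reads of AT2G01010 after UV-C against 3472 ± 801 non-treated (SD, n = 3 each). The non-treated WT value rests on only 3, 3, and 4 reads of AT2G01010. In *phot2* AT2G01008 had 268 ± 14 after UV-C against 2383 ± 625 non-treated, and in *phot1phot2* 313 ± 40 against 2037 ± 1278. In *phot1* it had 495 ± 96 after UV-C against 1012 ± 427 non-treated, and the libraries overlapped. AT3G06365 had 2.15 ± 0.18 reads per read of AT3G41768 after UV-C against 5.47 ± 0.19 non-treated in WT. The rows of the repeat did not keep a fixed proportion between treatments.

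Genes for making and processing rRNA were set beside the loci from 3 lists. Of the 10 RNA polymerase I genes, which encode subunits of the enzyme and its initiation factor, 42 pre-rRNA processing genes, and 10 tested of 11 genes of rDNA chromatin and growth control, 0 were called by edgeR or by DESeq2 in any comparison of treatments or genotypes. The share of all rows called by edgeR in either direction was 10.5% for UV-C in WT, 9.58% in *phot1*, 11.4% in *phot2*, and 11.9% in *phot1phot2*. It was 0.201% in non-treated *phot1* over WT, 0.828% in *phot2*, and 0.749% in *phot1phot2*, and after UV-C 0.145% in *phot1*, 1.99% in *phot2*, and 3.16% in *phot1phot2*. For the difference of UV-C log2FC from WT it was 0.00468% in *phot1*, 0.351% in *phot2*, and 1.45% in *phot1phot2*, where 0 list genes were called as well. Over the comparisons, an unadjusted p under 0.05 was found for 0 to 7 polymerase, 1 to 25 processing, and 0 to 5 chromatin genes, and for 7.3 to 59.3% of all rows. In the UV-C comparison of WT, 3 polymerase, 22 processing, and 3 chromatin genes had an unadjusted p under 0.05, as did 55.4% of all rows. With no limit on the fold change, an adjusted p under 0.01 was reached by 0 higher and 2 lower polymerase genes, by 3 higher and 6 lower processing genes, and by 1 higher and 2 lower chromatin genes, where 18.2% of all rows were higher and 19.1% lower by that rule. The median log2FC of UV-C over non-treated in WT was −0.04 for the polymerase list, −0.10 for the processing list, and 0.08 for the chromatin list, beside −0.003 for all rows.

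In *phot1phot2* over WT after UV-C, 7 of 10 polymerase genes had an unadjusted p under 0.05, as did 44.4% of all rows, and the list's median log2FC was −0.24, beside −0.03 for all rows. There, 23 of 42 processing genes had an unadjusted p under 0.05, with a median of −0.06. In *phot1* over WT after UV-C, the numbers were 1 polymerase, 2 processing, and 1 chromatin gene, beside 15.9% of all rows.

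The rows whose pattern was most like the summed rRNA loci were taken by Pearson's r of log2 CPM over the 24 libraries among 18680 rows with a mean of at least 20 reads. They were AT3G06365 (r = 0.9995), ATMG01390 (0.9988), the chloroplast row ATCG00020 (0.9986), ATMG00020 (0.9985), and the chloroplast row ATCG00490 (0.9984). Of the 50 most alike rows, 34 were chloroplast, 5 mitochondrial, and 11 nuclear. All libraries share their scaling and most of the pattern is the treatment, so r describes these libraries only. ATCG00020 averaged 7317 ± 552 CPM after UV-C against 30.9 ± 1.7 CPM non-treated in WT, and ATCG00490 averaged 6134 ± 754 CPM against 15.3 ± 2.7 CPM (SD, n = 3 each). Lowest were BBX15 (r = −0.9853), which encodes a B-box zinc finger protein and averaged 64.5 ± 2.9 CPM after UV-C against 273 ± 15 CPM non-treated in WT, and LHT2 (r = −0.9857), which encodes an amino acid transporter, at 1.79 ± 0.30 CPM against 5.18 ± 0.41 CPM.

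The targeted genes moved as labelled. *PHOT1* was lower in non-treated *phot1* than in WT (115 ± 5 CPM against 292 ± 17 CPM, log2FC −1.34, SE 0.08, edgeR quasi-likelihood adjusted p = 5.39e-10), and *PHOT2* had 249 ± 13 CPM in non-treated *phot2* against 408 ± 5 CPM in WT (log2FC −0.71, SE 0.06, edgeR quasi-likelihood adjusted p = 2.15e-07), short of the log2FC limit. Neither gene was without reads in its mutant. Rosette markers were high in every library, with 23618 to 33916 CPM summed over 4 mesophyll genes. Of 3 root hair genes, 2 were at 0 in all libraries and the third reached 0.0886 CPM, and 3 flower genes summed to at most 4.29 CPM. The 3 guard cell genes summed to 29.5 to 34.7 CPM after UV-C against 47.6 to 67.0 CPM non-treated. The 1 phloem gene stood at 110 to 155 CPM after UV-C against 81.7 to 122 CPM non-treated, with overlap. The part of these markers in the rRNA result was not tested. In whole rosettes, fewer cells of a type and less RNA per cell cannot be told apart.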

How the data were processed

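The authors made stranded poly-A libraries, aligned the reads with STAR 2.5.2b, and deposited whole read counts per row of the Araport11 annotation from featureCounts (Subread 1.6.2), with no normalization. Their command sets no strand and no multi-mapping reads, so reads of both strands were added, and reads matching several places or rows were left out. The deposited table also gives exon length, in bases, which was used only to check the annotation. The 21366 of 37813 rows that reached 5 reads in 6 or more libraries were kept, scaled by TMM, and fitted in one model of the 8 groups with edgeR 4.0.16 (R 4.3.3). Tests were quasi-likelihood tests with Benjamini-Hochberg adjustment over all kept rows, called at an adjusted p under 0.01 and an absolute log2FC over 1. With 3 against 3, an exact permutation test cannot go below p = 0.1. The members, lists, and rule for named genes were chosen with earlier results of these data known; the rule names the members, organelle rRNA rows, *PHOT1*, *PHOT2*, list genes called, and the rows of highest and lowest r. Sequences are from RefSeq TAIR10.1, where 37457 of the rows had the same start and end, and uniqueness was checked by exact matching. Replicates differed by more than counting noise in 24 of 24 pairs (chi-square per degree of freedom 4.35 to 23.2). Alternatives were DESeq2 1.42.0, other scalings and filters, a likelihood ratio test, a replicate block, and leaving out each library.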

Additional observations from a re-analysis of the deposited data

How the results depend on the processing

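Where the groups of a member did not overlap, its log2FC kept its direction under every alternative run. With no scaling factor, the log2FC of AT3G41768 was 7.95 for UV-C in WT, 7.57 for UV-C in *phot1phot2*, and −0.31 for *phot1phot2* over WT after UV-C; TMM scaling raised UV-C over non-treated by 0.27 in WT and by 0.36 in *phot1phot2*. Under that setting 1 pre-rRNA processing gene was called, against 0 otherwise (AT3G18610 in UV-C-treated over non-treated *phot1phot2*, log2FC −1.02), and 11 of 12 organelle rRNA calls were made. The difference of the UV-C log2FC of AT3G41768 from WT ranged from −1.25 to −0.58 in *phot1* and from −0.43 to −0.006 in *phot1phot2* when each library was left out in turn. For *phot1phot2* over WT non-treated, AT2G01010 was −0.06 without replicate 3 of the mutant, in place of 0.62. Windows found once fell to 29.85% of 50-base windows for AT2G01008, 5.39% for each 18S gene, and 16.43% for each 5.8S gene, and came to 49.87%, 10.49%, and 32.32% with 100-base windows. By Spearman's rho, 3 of the 5 most alike rows stayed among the 5 highest. Of the 2 lowest rows, LHT2 had a rho of −0.890 (rank 18646 of 18680), but BBX15 only −0.693 (rank 15280). Scaling on nuclear genes without the members and their neighbours (AT3G41768 at 8.22 for UV-C in WT) and the overlap of groups with no scaling factor (28 of 40 without overlap) were added after seeing the data.

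Replicate numbers are shared by the labels of all groups, but the correlation of deviations between same-numbered libraries was −0.119 to 0.249 over 30 pairs, and in no comparison did all 3 pairs reach 0.1, so the numbers were not taken as pairs. The headers of the count columns carry other sample numbers, which differ from the label numbers in every group except UV-C-treated *phot1phot2*. Pairing by the header numbers was not examined, and the replicate block also used the label numbers. With a replicate block, the log2FC of AT3G41768 was 8.21 for UV-C in WT and 1.08 for non-treated *phot1* over WT, 0 list genes were called, and all 12 organelle rRNA calls were made. The non-treated counts of AT2G01010 (3 to 22 reads) limit its fold changes, and rows that share most of their sequence with other repeats describe only the reads placed uniquely.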
